A study of Mus musculus with 5 samples.

Results

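Tbx21, Eomes, Maf, Ahr, Ikzf3, Ikzf2 and Tox are transcription factor genes best known from lymphocytes other than group 2 innate lymphoid cells (ILC2s). They were listed by name for their roles in group 1 ILCs (ILC1s), natural killer (NK) cells, group 3 ILCs and T17 cells. They make 7 of the 27726 genes common to the libraries of a single-cell RNA sequencing study of mouse lung ILC2s. The level of each gene was taken per library, and its detection was set beside that of Gata3, the factor that ILC2s depend on, cell by cell.

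The study compared 3 groups in 5 libraries, each from the pooled lungs of 5 mice. All mice were female wild-type C57BL/6 of 4 to 8 weeks, and all cells were sorted as lineage-negative CD45+ Thy1.2+ CD127+ ST2+. The naïve library came from mice without a tumour. The tumour-associated libraries came from mice given TC1 tumour cells under the skin of the right flank, 2 or 3 weeks earlier. Ta-non-activated ILC2s were sequenced as isolated, with 1 library per week. Ta-activated ILC2s, also with 1 library per week, were first cultured for 7 days in StemSpan SFEM II medium with recombinant human IL-2, mouse IL-33 and TSLP at 10 ng/mL each. Culture and cytokines therefore cannot be told apart in the ta-activated group.

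T-bet (from Tbx21) and eomesodermin are T-box factors. T-bet directs the interferon-γ programme of ILC1s and Th1 cells, and both are needed for NK cell maturation. c-MAF and the aryl hydrocarbon receptor (from Ahr) act in cells that make IL-17 and IL-22, and AHR is a ligand-activated sensor of small aromatic molecules. Aiolos (from Ikzf3) and Helios (from Ikzf2) are zinc finger proteins of the Ikaros family, and TOX is a DNA-binding protein of the HMG-box family that is needed for the common ILC progenitor. None of these genes is exclusive to one lineage, and lung ILC2s are sometimes described as plastic when they acquire factors of other lineages.

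Barcodes with 200 or more genes and under 5% mitochondrial counts were kept, which left 16530 of 18628. The kept cells held 9394957 to 61830293 unique molecular identifiers (UMIs) per library, with a median of 4396 to 16090 UMIs per cell. Pairs of libraries shared 1 to 11 barcodes. Levels are given as CPM, a gene's UMIs for every 1000000 UMIs of the kept cells of a library, with exact Poisson 95% intervals. Shares of cells were taken after each cell was thinned to 2000 UMIs, which kept 15987 cells, and have exact Clopper-Pearson 95% intervals. Both intervals cover counting error only and say nothing of the spread between mice.

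The ILC2 label was checked against marker genes. Cells with UMIs of 2 or more of 10 ILC2 genes, such as Il1rl1 (the ST2 receptor), Il13 and Il5, are called ILC2 gene cells below. They made up 73.6% of the naïve library, 84.0% and 27.4% of the week 2 and week 3 ta-non-activated libraries, and 70.6% and 80.1% of the week 2 and week 3 ta-activated libraries. In the ta-non-activated library of week 3, 61.8% of cells (924 of 1495) instead carried 3 or more CD3 or T cell receptor genes (CD3/TCR gene cells), and 42.7% carried 2 or more genes of early thymocytes such as Rag1, Dntt and Ptcra. The CD3/TCR share was 12.6% in the naïve library and 0.995% to 4.25% in the other 3, although the sort removed lineage-positive cells. These classes are ranges of a gene count and not cell types: in the ta-non-activated library of week 3 199 cells lay 1 gene below the CD3/TCR limit and 121 on it. No member of the list and no Gata3 was used to define a class. The factors' levels in this library, and the ratios and Gata3 shares that rest on it, are therefore given in all cells and also without these cells or within ILC2 gene cells. Counts over the gene lists are for all cells only.

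Tbx21 lies on the minus strand of chromosome 11 (GRCm38, 97098071 to 97115331, ENSMUSG00000001444). It had 298 UMIs (9.20 CPM, interval 8.18 to 10.3) in the naïve library, 8 (0.24 CPM) and 2 (0.21 CPM) in the week 2 and week 3 ta-non-activated libraries, 15 (0.26 CPM) in the ta-activated library of week 2 and 0 in the ta-activated library of week 3. The naïve library stood far above the other 4, and the 3 libraries with 2 to 15 UMIs did not differ beyond their counting intervals. The 0 in 61830293 UMIs allowed 0.049 CPM by the level of 3 counts (exact upper bound 0.060 CPM). Eomes (chromosome 9, plus strand, 118478212 to 118486132, ENSMUSG00000032446) was near its detection limit, with 31, 0, 3, 7 and 1 UMIs in the same order of libraries. Its naïve level was 0.96 CPM (0.65 to 1.36), and its interval overlapped only that of the ta-non-activated library of week 3 (0.32 CPM, 0.066 to 0.93).

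The T-box signal of the naïve library lay largely outside the ILC2 gene cells. NK or ILC1 gene cells, which carry 2 or more of 11 genes such as Ncr1, Nkg7 and Gzma, were 122 of 6147 thinned cells (1.98%), with 557 more cells 1 gene below that limit. Tbx21 had a UMI in 23.0% of them (28 of 122, 15.8 to 31.4%), in 2.33% of CD3/TCR gene cells (18 of 773, 1.39 to 3.65%) and in 0.268% of ILC2 gene cells that were in no other class (11 of 4105, 0.134 to 0.479%). Of the 122 NK or ILC1 gene cells, 86 were not CD3/TCR gene cells, and Tbx21 was in 25.6% of these (22 of 86). The Tbx21 level was 181.6 CPM in NK or ILC1 gene cells and 2.13 CPM (1.56 to 2.84) in the ILC2 gene cells. Endothelial gene cells, which should lack Tbx21, had it in 1.30% (1 of 77, 0.033 to 7.02%), with a median of 4527 UMIs before thinning against 4656 in the ILC2 gene cells. This background rests on 1 cell, its interval spans the share in ILC2 gene cells, and 66.2% of the endothelial class also had a UMI of Il1rl1. Gata3 was in 57.1% of the endothelial class, and 48 of its 77 cells lay on the limit of 2 genes. Its shares are not read as those of endothelium for any factor. No class here therefore serves as a background for Tbx21. Whether the share in ILC2 gene cells exceeded background was not tested, and that share is not read as expression. Between libraries, the class set by this rule, though not through the same genes, held 46 Tbx21 UMIs when naïve and 2 when ta-non-activated at week 2 (CPM ratio 30.55, 7.99 to 259.8). After culture it held 6 at week 2 (naïve ratio 15.2, 6.47 to 43.5) and 0 at week 3 (lower bound 27.3). The week 3 ta-non-activated class also held 0, but its lower bound was only 0.660. How much of this naïve excess was background, or came from the genes that set the class in each library, was not tested. Of the 74 thinned naïve cells with Tbx21, 28 were NK or ILC1 gene cells (37.8%), 18 were CD3/TCR gene cells, 11 were ILC2 gene cells in no other class and 21 were in no class, where a cell can be in several classes. Eomes was found in 3 of the 122 NK or ILC1 gene cells and in 1 of the 4105 ILC2 gene cells.

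Before thinning, 142 naïve cells (2.22%) held Tbx21, 76 of them with a single UMI and none with more than 11. Of these 142 cells, 72 carried 2 or more NK or ILC1 genes, 58 carried 3 or more CD3 or T cell receptor genes, and 58 had neither Gata3 nor Il1rl1. Without thinning, 4600 of all 6389 kept naïve cells met neither the NK or ILC1 nor the CD3/TCR limit. The share of all cells past each limit alone is not given at this depth. Gata3 was found in 78 of the 142, and in 36 of the 66 with 2 or more Tbx21 UMIs, beside 84.2% of all kept naïve cells. A group of 29 cells held Tbx21, Gata3 and Il1rl1 together, 12 of them with 2 or more Tbx21 UMIs. Of these 29 cells, 17 carried fewer than 2 NK or ILC1 genes. The 29 cells were 0.623% of the 4658 naïve cells with both Gata3 and Il1rl1. Their median depth was 9661 UMIs, against 4796 in all cells with Gata3 and Il1rl1 and 4882 in the Tbx21 cells without both. No doublet caller was run, and the part of doublets in these 29 cells was not tested. In the ta-activated library of week 2, 10 of the 13 Tbx21 cells carried 2 or more NK or ILC1 genes. As many (10) carried 3 or more CD3 or T cell receptor genes, and 10 held Gata3, beside 93.1% of all cells. The median depth of the 13 cells was 44052 UMIs against 13636 in all cells. Of all 2895 kept cells of that library, 2153 met neither the NK or ILC1 nor the CD3/TCR limit without thinning. All 3 Tbx21 cells of the ta-non-activated library of week 2 held Gata3, beside 95.8% of all cells. Of these 3 cells, 2 held Il1rl1 as well. Among the 85 NK or ILC1 gene cells of the ta-non-activated library of week 3 Tbx21 was found in 0. That allows a share of cells with a UMI of up to 3.53% at 3 counts (exact upper bound 4.25%). Only 5 of those 85 cells were not also CD3/TCR gene cells, and 80 of the 85 lay on the limit of 2 genes. Of the 15 naïve cells with Eomes, 13 carried 2 or more NK or ILC1 genes and 10 had neither Gata3 nor Il1rl1.

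**Figure D1:**
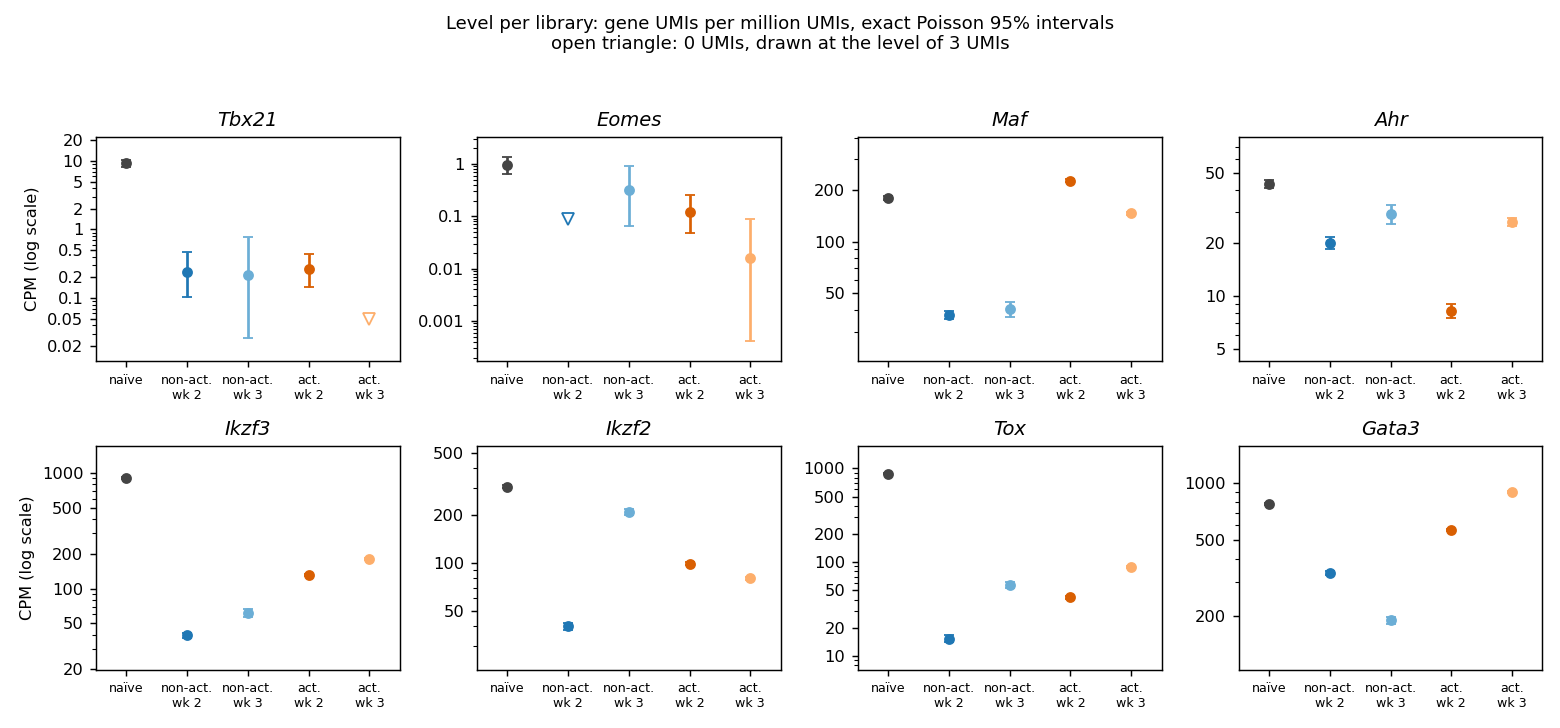
Level of each of the 7 factors and of Gata3 (CPM, log scale) in the 5 libraries, with exact Poisson 95% intervals; open triangles mark 0 UMIs and are drawn at the level of 3 UMIs. Tbx21 and Eomes are highest in the naïve library, while Maf is as high or higher in a ta-activated library (226 CPM in week 2 against 179.7 CPM in the naïve library).

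Maf, which encodes the bZIP factor c-MAF, lies on chromosome 8 (minus strand, 115682942 to 115707794, ENSMUSG00000055435). Its level was 179.7 CPM (175.1 to 184.4) in the naïve library, 37.6 and 40.5 CPM in the week 2 and week 3 ta-non-activated libraries, and 226 and 146.5 CPM in the week 2 and week 3 ta-activated libraries. Both ta-non-activated libraries were low and their intervals overlapped (35.5 to 39.7 and 36.5 to 44.7 CPM), and both ta-activated libraries were above them. The week 3 ta-non-activated level depended on its CD3/TCR gene cells: without CD3/TCR and NK or ILC1 gene cells, here set on all UMIs of each cell, it was 124.8 CPM, while the week 2 level was 34.0 CPM. Set in this way, the rule removed more cells than the thinned classes held. It left 4600 of 6389 naïve cells, and 1546 of 1823 and 593 of 1601 week 2 and week 3 ta-non-activated cells. Of the week 2 and week 3 ta-activated cells it left 2153 of 2895 and 3195 of 3822.

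Within the naïve library Maf stood out in type 17 gene cells, which carry 2 or more of 10 genes such as Il23r, Il17a and Ccr6. It had a UMI in 58.2% of them (178 of 306, 52.4 to 63.8%), in 37.9% of CD3/TCR gene cells, in 23.8% of ILC2 gene cells in no other class (979 of 4105, 22.5 to 25.2%) and in 14.3% of endothelial gene cells (7.35 to 24.1%). Its level was 448.5 CPM in type 17 gene cells and 152.1 CPM in the ILC2 gene cells. Most type 17 gene cells (241 of 306) were also CD3/TCR gene cells, 149 lay on the limit of 2 genes and 246 more cells lay 1 gene below it. The share with Gata3 was 22.2% in type 17 gene cells and 74.9% in the ILC2 gene cells. In the ta-non-activated library of week 3, 13 of 21 type 17 gene cells held Maf (61.9%, 38.4 to 81.9%) against 6.17% of CD3/TCR gene cells.

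Ahr is on chromosome 12 (minus strand, 35497974 to 35535038, ENSMUSG00000019256). Its level was 43.0 CPM in the naïve library, 19.9 and 28.9 CPM in the week 2 and week 3 ta-non-activated libraries, and 8.16 and 26.2 CPM in the week 2 and week 3 ta-activated libraries. The week 2 ta-activated library was lowest (7.44 to 8.93 CPM), and the 2 week 3 libraries overlapped (25.6 to 32.6 and 24.9 to 27.5 CPM). The level in the ta-non-activated library of week 3 was 27.9 CPM without CD3/TCR and NK or ILC1 gene cells. In the naïve library, ILC2 gene cells had the smallest share with Ahr, 5.90% (5.19 to 6.66%), against 10.5% of type 17 gene cells (7.26 to 14.4%), 10.5% of CD3/TCR gene cells, 18.9% of NK or ILC1 gene cells (12.3 to 26.9%) and 20.8% of endothelial gene cells (12.4 to 31.5%). AHR acts in endothelium too, and 66.2% of the endothelial class also had a UMI of Il1rl1. For both reasons no naïve class serves as a background for Ahr. Whether ILC2 gene cells held more Ahr than free RNA would give was not tested. In the ta-activated library of week 3, 93.5% of Ahr cells (88.6 to 96.7%) were ILC2 gene cells in no other class. The share was 78.1% in cells without Ahr. In every other library it was lower in Ahr cells than in the rest, such as 53.4% against 67.8% in the naïve library.

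**Figure D2:**
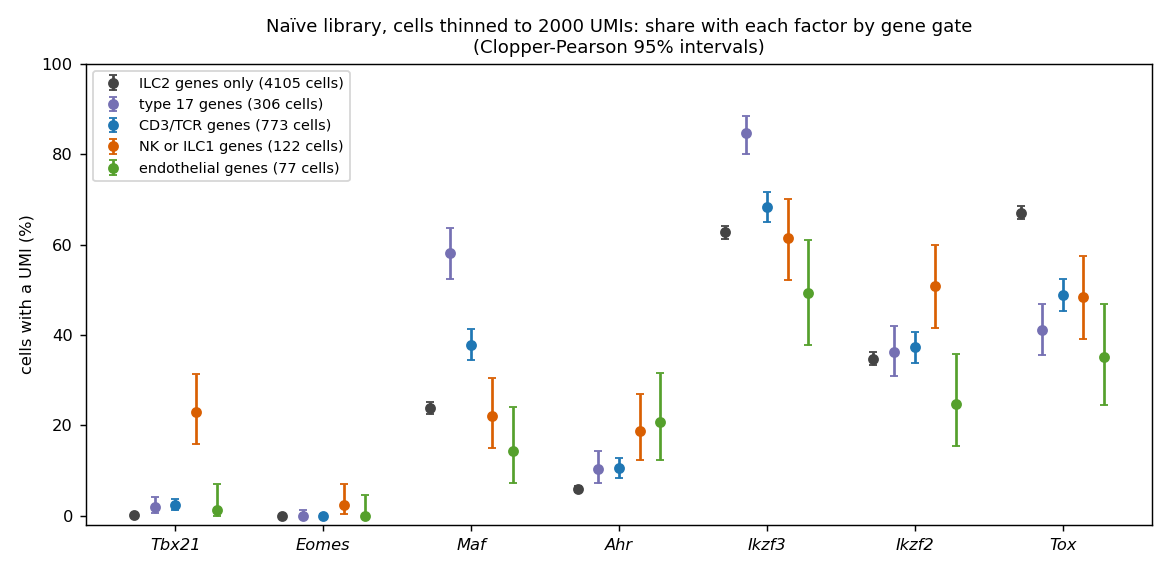
Share of naïve cells with a UMI of each factor (%), after thinning to 2000 UMIs, in classes of cells set by marker genes, with Clopper-Pearson 95% intervals. Of the 5 classes, NK or ILC1 gene cells have the highest share with Tbx21 (23.0%), type 17 gene cells the highest share with Maf (58.2%), and ILC2 gene cells the highest share with Tox (67.0%).

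Ikzf3 lies on chromosome 11 (minus strand, 98464902 to 98546031, ENSMUSG00000018168). Its level was 904.2 CPM in the naïve library, 39.5 and 61.4 CPM in the week 2 and week 3 ta-non-activated libraries, and 130.6 and 180.4 CPM in the week 2 and week 3 ta-activated libraries. No 2 of these intervals overlapped, and the order was naïve, ta-activated, ta-non-activated. Without CD3/TCR and NK or ILC1 gene cells the week 3 ta-non-activated level was 212.4 CPM, above both ta-activated levels (144.5 and 197.8 CPM). In that library Ikzf3 had a UMI in 30.0% of ILC2 gene cells in no other class (109 of 364, 25.3 to 34.9%), in 4.33% of CD3/TCR gene cells (3.11 to 5.85%) and in 0.94% of early thymocyte gene cells (6 of 638, 0.35 to 2.04%). In the naïve library it was found in 84.6% of type 17 gene cells (80.1 to 88.5%), 68.3% of CD3/TCR gene cells, 62.7% of ILC2 gene cells (61.2 to 64.2%) and 49.4% of endothelial gene cells (37.8 to 61.0%).

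Ikzf2 (chromosome 1, minus strand, 69531214 to 69687245, ENSMUSG00000025997) had another pattern. Its level was 304.1 CPM in the naïve library, 39.7 and 210 CPM in the week 2 and week 3 ta-non-activated libraries, and 99.2 and 79.9 CPM in the week 2 and week 3 ta-activated libraries. The ta-non-activated group thus held both the lowest level and the highest level outside the naïve library. In the ta-non-activated library of week 3 Ikzf2 had a UMI in 38.4% of CD3/TCR gene cells (355 of 924, 35.3 to 41.6%), 41.7% of early thymocyte gene cells (37.8 to 45.6%) and 16.2% of ILC2 gene cells in no other class (59 of 364, 12.6 to 20.4%). Without CD3/TCR and NK or ILC1 gene cells its level there was 101 CPM. In the naïve library the share was 50.8% in NK or ILC1 gene cells (41.6 to 60.0%), 34.8% in ILC2 gene cells (33.3 to 36.3%) and 24.7% in endothelial gene cells (15.6 to 35.8%, overlapping the ILC2 gene cells). In the NK or ILC1 gene cells that were not CD3/TCR gene cells it was 41.9% (36 of 86, 31.3 to 53.0%), which also overlapped the ILC2 gene cells.

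Tox is the longest of the 7 genes (chromosome 4, minus strand, 6686353 to 6991557, ENSMUSG00000041272). Its level was 875.2 CPM in the naïve library, 15.4 and 57.2 CPM in the week 2 and week 3 ta-non-activated libraries, and 42.3 and 88.0 CPM in the week 2 and week 3 ta-activated libraries. No 2 intervals overlapped, and the week 3 library was the higher of each pair. The level in the ta-non-activated library of week 3 was 94.0 CPM without CD3/TCR and NK or ILC1 gene cells. In the naïve library Tox was most frequent in ILC2 gene cells in no other class (67.0%, 65.6 to 68.5%), above NK or ILC1 gene cells (48.4%, 39.2 to 57.6%), CD3/TCR gene cells (48.9%, 45.3 to 52.5%), type 17 gene cells (41.2%, 35.6 to 46.9%) and endothelial gene cells (35.1%, 24.5 to 46.8%). In the ta-non-activated library of week 3 the share was 18.1% in ILC2 gene cells and 10.3% in CD3/TCR gene cells (14.3 to 22.5% and 8.40 to 12.4%). Fewer cells of a class and less RNA per cell cannot be told apart in the library levels.

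Across libraries the thinned shares followed the levels. Maf was found in 26.7% of naïve cells, 7.63% and 10.6% of week 2 and week 3 ta-non-activated cells, and 35.4% and 24.2% of week 2 and week 3 ta-activated cells. For Ikzf3 the 5 shares were 61.7%, 6.69%, 12.4%, 24.2% and 30.5% in that order, and for Tox they were 63.3%, 3.26%, 13.2%, 8.89% and 15.0%. Without thinning, Maf was found in 46.0%, 36.3%, 17.5%, 82.7% and 69.6% of cells, Ikzf3 in 76.2%, 39.2%, 20.3%, 74.3% and 80.0%, and Tox in 79.8%, 21.9%, 25.7%, 44.4% and 61.4%. The unthinned shares differed most from the thinned ones in the 3 deeper libraries.

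Co-detection with Gata3 asked whether cells with one of the listed factors also held Gata3. A Gata3 UMI does not by itself mark an ILC2. It was found in 46.2% of naïve CD3/TCR gene cells and 15.2% of early thymocyte gene cells of the week 3 ta-non-activated library. Gata3 itself had a UMI in 68.2% of naïve cells, 48.6% and 32.8% of week 2 and week 3 ta-non-activated cells, and 65.5% and 82.0% of week 2 and week 3 ta-activated cells, all thinned. Naïve cells with Tbx21 held Gata3 in 31.1% (23 of 74, 20.8 to 42.9%), against 68.6% of naïve cells without Tbx21 (67.4 to 69.8%). Of the 6 factors with 20 or more positive cells in the naïve library, Tbx21 had the largest gap, 37.5 percentage points lower. Within ILC2 gene cells in no other class, 6 of 11 Tbx21 cells held Gata3 (54.5%, 23.4 to 83.3%) against 74.9% of the others, and these intervals overlapped.

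The gaps of the other factors were smaller. In the naïve library Gata3 was found in 71.2% of cells with Tox (69.8 to 72.6%) and 62.9% of cells without (60.8 to 64.9%). The corresponding shares were 69.3% and 66.2% for Ikzf3, 68.5% and 68.0% for Ikzf2, 64.7% and 69.4% for Maf, and 62.5% and 68.6% for Ahr. The intervals of Ikzf3 and Ikzf2 overlapped. Those of Maf (62.3 to 67.0% and 68.0 to 70.7%) and Ahr (57.8 to 67.0% and 67.4 to 69.8%) stood apart by a narrow margin, with Gata3 rarer in cells with the factor. Within ILC2 gene cells in no other class the Maf shares were 74.7% and 75.0%, and the Ahr shares were 78.9% (73.2 to 83.9%) and 74.6%. The Tox gap was smaller there, 76.2% (74.5 to 77.7%) and 72.3% (69.8 to 74.7%), with intervals that overlapped. In that class the intervals of Ikzf3 stood apart, with Gata3 in 76.8% of cells with Ikzf3 (75.1 to 78.4%) and 71.6% of cells without (69.3 to 73.9%).

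The week 3 ta-non-activated library differed between its cell classes. Gata3 was found in 60.0% of cells with Ikzf3 (52.6 to 67.1%) and 29.0% of cells without it. It was found in 46.5% of cells with Maf (38.6 to 54.6%) and 31.2% without, and in 43.7% of cells with Tox (36.6 to 50.9%) and 31.2% without. Ikzf2 went the other way, with Gata3 in 25.5% of its cells (21.6 to 29.8%) and 36.1% of the rest (33.2 to 39.1%). Within ILC2 gene cells in no other class none of these 4 pairs of intervals stood apart. The shares there were 71.6% and 58.8% for Ikzf3, 59.4% and 63.3% for Maf, 66.7% and 61.7% for Tox, and 66.1% and 62.0% for Ikzf2.

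In the ta-non-activated library of week 2 no factor with 20 or more positive cells separated cells by Gata3 beyond the intervals. The largest gap there was that of Tox, with Gata3 in 62.7% of 59 cells with Tox (49.1 to 75.0%) and 48.2% of cells without (45.8 to 50.5%). In all cells of the ta-activated libraries the differences were of a few points. With Maf, Gata3 was found in 68.4% against 63.9% in week 2 and in 85.0% against 81.0% in week 3. For Ikzf3 the shares were 68.5% against 64.6% and 85.1% against 80.6%. For Tox they were 72.1% against 64.9% and 85.0% against 81.4%. Ikzf2 had 67.4% against 65.1% and 80.3% against 82.2%. In all cells the intervals stood apart for Maf and Ikzf3 in week 3 only, and overlapped for both in week 2 and for Tox and Ikzf2 in both weeks. Within ILC2 gene cells in no other class they stood apart for Tox in week 2 and Ikzf3 in week 3 only. There Gata3 was in 79.2% of cells with Tox (72.4 to 85.0%) and 69.5% without (67.3 to 71.6%). For Ikzf3 it was in 86.7% (84.3 to 88.8%) and 82.2% (80.4 to 83.8%).

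**Figure D3:**
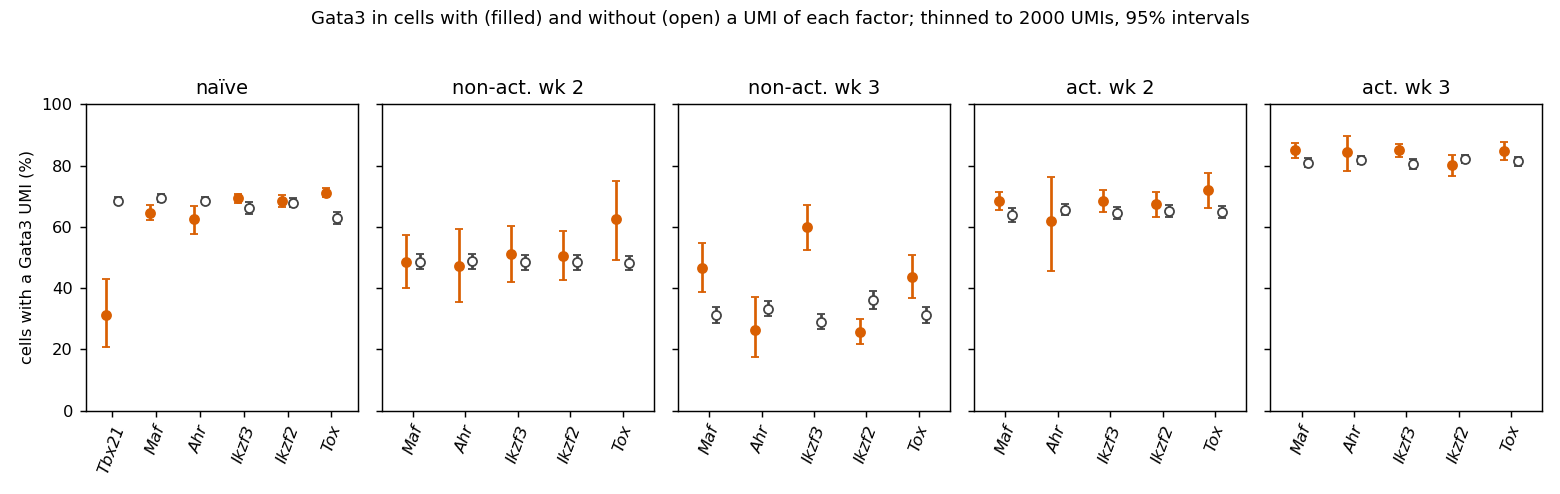
Share of cells with a Gata3 UMI (%) among cells with (filled) and without (open) a UMI of each factor, 1 panel per library, thinned to 2000 UMIs, with 95% intervals. Naïve Tbx21 cells sit lowest against their open partner (31.1% and 68.6%), and in the ta-non-activated library of week 3 Ikzf3 cells sit above theirs (60.0% and 29.0%) and Ikzf2 cells below (25.5% and 36.1%).

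The genes whose detection was most like that of each factor were taken by the phi coefficient over thinned cells of 1 library. Over 25 pairs of factor and library, the highest phi ranged from 0.072 to 0.374. Phi cannot reach 1 for genes found in unlike numbers of cells, so a low value alone does not show weak likeness. At the low end, Sdf4 was in 52.7% of week 3 ta-activated cells with Tox and 42.7% of those without. Nkg7 was in 56.8% of naïve cells with Tbx21 and 3.94% of those without. For Tbx21 in 74 naïve cells they were Nkg7 (phi 0.276), Xcl1, Gimap4, Fcer1g and Ms4a4b. For Maf in the naïve library they were Il23r (0.138), Il18r1, Cd3d, Cd3e and 5830411N06Rik, and in the ta-non-activated library of week 3 S100a4 (0.258) and Rora came first. Ikzf3 in the ta-non-activated library of week 3 was most like Icos (0.374), while Ikzf2 there was most like Myl10 (0.253), with the early thymocyte gene Dntt (0.208) among its 5. In the naïve library Ikzf3 was most like Nr4a1 (0.224), Tox like Atxn1 (0.162), Ikzf2 like Arhgap15 (0.098) and Ahr like Fcer1g (0.097). Phi between members lay between -0.046 and 0.054 in the naïve library. Over all libraries the highest was 0.147, for Maf and Ikzf3 in the ta-non-activated library of week 3, and the next was 0.103, for Ahr and Ikzf2 in the ta-non-activated library of week 2. These values share library and depth, and are descriptions with no test.

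Activation was examined first within each week, where 1 library stands on each side and the intervals cover counting error only. In week 2, activated cells had 6.01 times (5.67 to 6.38) the Maf level, 3.31 times (3.12 to 3.51) the Ikzf3 level, 2.75 times (2.50 to 3.04) the Tox level, 2.50 times (2.35 to 2.66) the Ikzf2 level and 0.410 times (0.364 to 0.463) the Ahr level. That is 4 of 6 factors past 2-fold higher, where 27.0% of all genes were, and 1 of 6 past 2-fold lower, where 9.56% were. In week 3, the ratios were 3.62 for Maf (3.27 to 4.02), 2.94 for Ikzf3 (2.70 to 3.20), 1.54 for Tox (1.41 to 1.69), 0.905 for Ahr (0.795 to 1.03) and 0.381 for Ikzf2 (0.361 to 0.401). Here 2 of 5 factors were past 2-fold higher, beside 24.5% of all genes, and 1 of 5 past 2-fold lower, beside 20.5%. Maf and Ikzf3 were higher in both weeks, while Ikzf2 was higher in week 2 and lower in week 3. The Tbx21 ratio of week 2 was 1.09 (0.432 to 2.96), and in week 3 too few UMIs were present for Tbx21 and Eomes.

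Limited to ILC2 gene cells in no other class, the week 2 ratios were similar and the week 3 ratios were not. In week 2 they were 6.73 for Maf, 3.57 for Ikzf3, 2.76 for Ikzf2, 2.65 for Tox and 0.350 for Ahr. In week 3 they were 1.32 for Maf (1.11 to 1.58), 0.758 for Ikzf3 (0.675 to 0.855), 0.864 for Ikzf2 (0.715 to 1.05), 0.900 for Tox (0.751 to 1.09) and 1.23 for Ahr (0.847 to 1.86). The week 3 ta-non-activated class held 364 cells, against 1510 in week 2. Its Ikzf3 level was 246.1 CPM and its Maf level 111.7 CPM, against 37.3 and 34.2 CPM in the week 2 class. Gata3 was higher after culture within this class in both weeks, 1.76-fold and 1.44-fold. The genes that set the class differed between the libraries. Il1rl1 had a UMI in 81.39% of the naïve class, and in 12.98% and 59.07% of the week 2 and week 3 ta-non-activated classes. After culture its share was 6.282% at week 2 and 22.86% at week 3. The part of this difference in the ratios within the class was not tested.

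**Figure D4:**
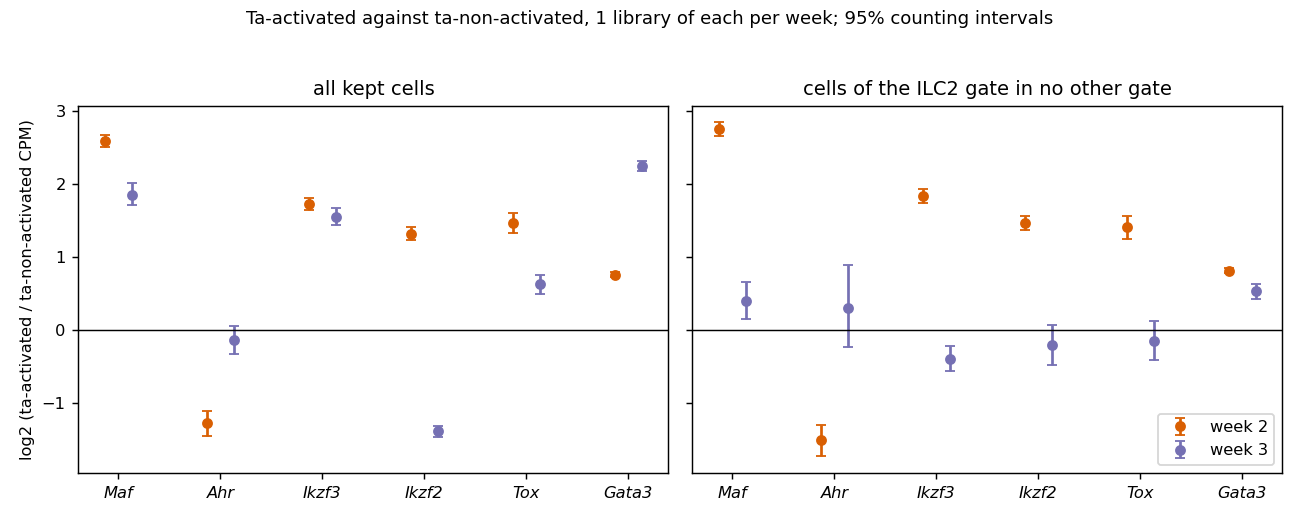
Log2 ratio of ta-activated to ta-non-activated CPM for each factor with enough UMIs and for Gata3, by week, in all kept cells (left) and in ILC2 gene cells of no other class (right), with 95% counting intervals. Maf and Ikzf3 are above 0 in both weeks in all cells, and in the ILC2 gene cells of week 3 Ikzf3 is below 0 (ratio 0.758).

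With the weeks as replicates, edgeR's quasi-likelihood test on library sums compared the 2 ta-activated with the 2 ta-non-activated libraries over 12643 genes, and Eomes was left out by the filter on low counts. No gene had an adjusted p under 0.05, so 0% of genes and 0 of 6 factors were called. At an unadjusted p under 0.05 there were 2120 genes, Maf and Ikzf3 among them. The log2 differences were 2.16 ± 0.40 (SE, n = 2 against 2) for Maf with an edgeR adjusted p of 0.243, and 1.55 ± 0.36 for Ikzf3 with an edgeR adjusted p of 0.244. The differences of Tox (0.81 ± 0.68), Ikzf2 (-0.48 ± 0.75), Ahr (-0.60 ± 0.61) and Tbx21 (-0.92 ± 1.72) were within about 1 SE of 0 or little more, with edgeR adjusted p-values of 0.565 to 0.798. Maf and Ikzf3 were the 2 of 6 factors with both ta-activated libraries above both ta-non-activated ones, an order that 32.3% of all genes had. No factor had the opposite order, which 20.6% of genes had. DESeq2 called 1037 genes (8.20%), and with it Maf (2.14 ± 0.49, adjusted p = 0.000728) and Ikzf3 (1.52 ± 0.45, adjusted p = 0.0165) passed. Without CD3/TCR and NK or ILC1 gene cells the edgeR differences were 1.14 for Maf and 0.30 for Ikzf3 (adjusted p of 0.581 and 0.909). Over 13 alternatives the adjusted p ranged from 7.28e-04 to 1 for Maf and from 0.0165 to 1 for Ikzf3.

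Genes of the programmes that these factors belong to were counted in the same edgeR fit, and none of them passed. Of the type 1 list of 21 genes, 20 were tested, 11 of them higher and 9 lower after activation, with a median log2 difference of 0.48 against -0.02 over all genes. Il18r1, a subunit of the IL-18 receptor, had the smallest adjusted p of the list (2.60 ± 0.58, adjusted p = 0.243). Of the type 17 list of 14 genes, 12 were tested, 4 higher and 8 lower, with a median of -0.85. Of the AHR target genes, 5 were tested, 3 higher and 2 lower. Among them Ahrr, the AHR repressor, had 7.46 and 0 CPM in the week 2 and week 3 ta-non-activated libraries and 8.93 and 16.1 CPM in the ta-activated ones. Of 3 cytokine genes linked to c-MAF, Il4 and Il10 were tested and both were higher (median 2.98). Il10 was at 45.1 CPM in the ta-activated library of week 2 and at 0.77 to 2.80 CPM in the other 4. Of 12 relatives of the factors (Ikaros, TOX, MAF and AHR families), 11 were tested, 7 higher and 4 lower, with a median of 0.10.

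Week by week the type 1 list split differently. In week 2, 12 of the 20 type 1 genes with enough UMIs were past 2-fold higher after activation and 1 past 2-fold lower, beside 27.0% and 9.56% of all genes. In week 3, 8 of 17 were past 2-fold higher and 9 past 2-fold lower, beside 24.5% and 20.5% of all genes. The week 3 ta-non-activated library held 599.6 CPM of Gzma, a granule protease of cytotoxic cells, against 0.18 CPM in the ta-activated library of week 3. Il22 was at 214.4 CPM in the ta-non-activated library of week 2, 138.2 CPM in the ta-activated library of week 3 and 0.32 CPM in the ta-non-activated library of week 3, an order that neither Maf nor Ahr shared.

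The naïve library was compared with each tumour-associated library, again with 1 library on each side. All 7 factors were past 2-fold higher in the naïve than in the ta-non-activated library of week 2, where 42.8% of all genes were. Against the ta-non-activated library of week 3 5 of 7 were (34.8% of all genes), against the ta-activated library of week 2 6 of 7 (32.5%), and against the ta-activated library of week 3 5 of 7 (31.2%). These comparisons share the naïve library, so they are not independent. The naïve to week 2 ta-non-activated ratio was 57.0 (52.3 to 62.4) for Tox, 38.2 (19.1 to 89.3) for Tbx21, 22.9 (21.7 to 24.2) for Ikzf3, 7.66 (7.23 to 8.12) for Ikzf2, 4.78 (4.50 to 5.09) for Maf and 2.16 for Ahr. Eomes was 10.6-fold higher when set against 3 counts (exact lower bound 8.12). Against the ta-non-activated library of week 3 the ratios were 15.3 for Tox, 14.7 for Ikzf3, 4.44 for Maf, 1.49 for Ahr and 1.45 for Ikzf2, with Tbx21 at 43.2 (11.9 to 358.5) on 2 UMIs and Eomes at 2.997 (0.935 to 15.3) on 3. Without CD3/TCR and NK or ILC1 gene cells on either side, the log2 ratios to this library were 3.26 for Tox, 2.03 for Ikzf3, 1.53 for Ikzf2 and 0.33 for Maf, each moved from its value in all cells by more than the counting error. Against the ta-activated library of week 3 Tbx21 was 189.6-fold higher when set against 3 counts (exact lower bound 153.2), Maf 1.23-fold and Ahr 1.64-fold.

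The naïve ratios moved with gene structure. The naïve matrix names another release of Cell Ranger in its header (6.0.0) than the other 4 (3.0.2). Over 6580 to 6708 genes at 20 CPM or more, Spearman's rho between a gene's intron length and its log2 ratio of naïve to another library was 0.573 to 0.595. Between libraries of the same release it was -0.113 to 0.148. Genes are not independent replicates, and these values have no test. The 863 genes with 100000 or more bases of intron had a median log2 ratio of 2.85 against the ta-non-activated library of week 2, and the 418 genes with under 1000 bases had -0.77. Tox has 297596 bases of intron, Ikzf2 144419, Ikzf3 72376, Ahr 30902, Maf 16612, Tbx21 14773 and Eomes 3766. Tox and Ikzf2 thus belong to the genes with long introns, where high naïve ratios were common. Tbx21 lies between these length groups, and no median was taken for genes of its length. Its ratio of 38.2 rests on 8 UMIs in the ta-non-activated library of week 2. The part of the release in the naïve ratios was not tested, and tumour, release and library cannot be told apart.

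**Figure D5:**
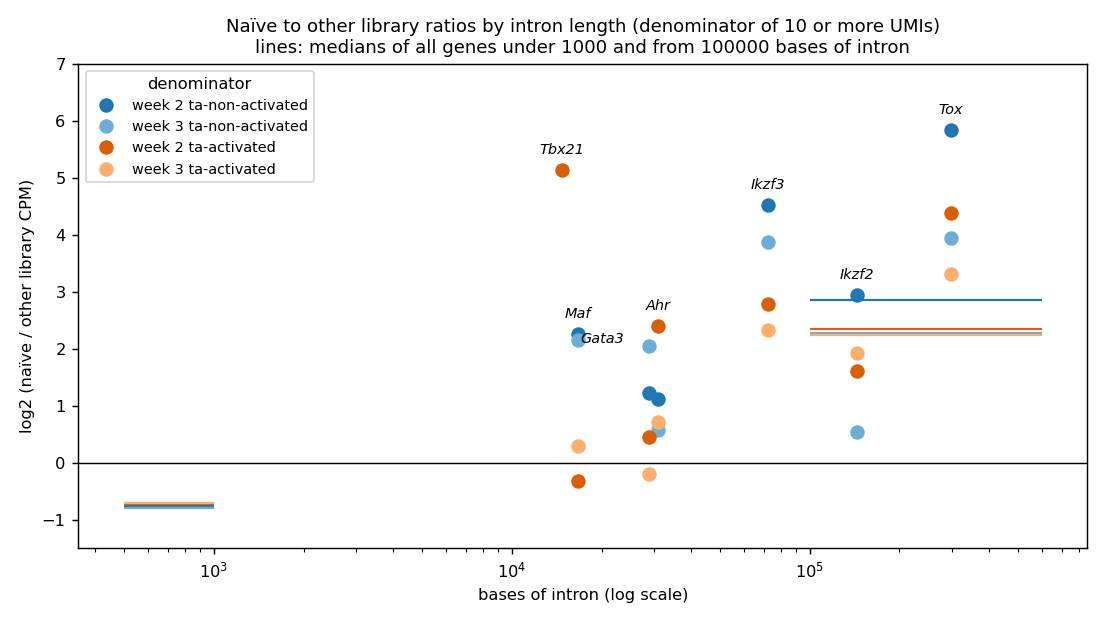
Log2 ratio of naïve to each other library (y axis) against bases of intron (x axis, log scale) for the factors with 10 or more UMIs in the denominator library and for Gata3; horizontal lines give the medians of all genes with under 1000 and with 100000 or more bases of intron. Tox and Ikzf2, the factors with the most intron, differ in ratio (57.0 and 7.66 against the ta-non-activated library of week 2).

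Relatives of the factors varied between the libraries as well. Ikzf1, the founding member of the Ikaros family, was at 716.6 CPM in the naïve library and at 52.9 to 132.2 CPM in the other 4. Ikzf4, which encodes Eos, went the other way, with 2.99 CPM in the naïve library and 4.26 to 43.7 CPM in the others. Of 12 relatives, 4 were past 2-fold higher and 2 past 2-fold lower in the naïve than in the ta-non-activated library of week 2, beside 42.8% and 18.9% of all genes. Of the 9 ILC2 factors listed, 8 were past 2-fold higher there, Rora among them (2977 against 161.5 CPM), and of the 21 type 1 and 14 type 17 genes 18 and 11 were. Of the AHR targets, 1 of 4 was past 2-fold higher in the naïve library (Tiparp, 401.3 against 83.5 CPM) and 3 were past 2-fold lower, such as Nqo1 at 0.185 against 11.0 CPM. Against the ta-non-activated library of week 3, 2 of 2 AHR targets with enough UMIs were past 2-fold higher in the naïve library, beside 34.8% of all genes.

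Markers of other cells moved with the libraries too. Summed levels of the CD3 and T cell receptor genes were 1238 CPM in the naïve library, 304.9 and 6746 CPM in the week 2 and week 3 ta-non-activated libraries, and 691.9 and 437.1 CPM in the ta-activated ones. The sum of the 11 NK or ILC1 genes was 245.5 CPM in the naïve library, 55.6 and 749.3 CPM in the week 2 and week 3 ta-non-activated ones, and 96.9 and 157 CPM in the ta-activated ones. All 9 CD3 and T cell receptor genes had UMIs in every library, as did 11, 11, 8, 7 and 6 of the 11 NK or ILC1 genes in the order naïve, week 2 and week 3 ta-non-activated, week 2 and week 3 ta-activated. Klra4, Klra8 and Klra9 were at 0 in the last 3 of these libraries, Klra7 in both ta-activated ones, and Klrb1c (NK1.1) in the ta-activated library of week 3. Ncr1, which encodes NKp46, was at 8.06 CPM in the naïve library, 0.57 and 0.53 CPM in the week 2 and week 3 ta-non-activated libraries, and 2.09 and 0.016 CPM in the week 2 and week 3 ta-activated libraries. The naïve library was the highest for Ncr1 as for Tbx21. The part of these cells in the Tbx21 level was not tested beyond the value without them. Gzma alone gave 599.6 of the 749.3 CPM in the ta-non-activated library of week 3. Without CD3/TCR and NK or ILC1 gene cells the naïve Tbx21 level was 3.53 CPM in place of 9.20 CPM, still above the other libraries.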

How the data were processed

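Single-cell RNA of sorted lung ILC2s was sequenced with the 10x Genomics 3′ chemistry in 5 libraries. The deposited matrices hold unnormalized UMI counts for genes by barcodes, which the authors made with Cell Ranger against GRCm38. Per the labels the release was 3.0.2, with Seurat 3 downstream; per the file headers it was 6.0.0 for the naïve matrix and 3.0.2 for the other 4. No normalized values were used.

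Groups came from the labelled treatment. The members and gene lists were chosen with earlier results of these data known. Barcodes with 200 or more genes and under 5% mitochondrial counts were kept. Levels were summed per library, which had 9394957 to 61830293 UMIs. For shares and cell classes each cell was thinned once to 2000 UMIs, and shallower cells (14 to 242 per library) were left out. No doublets were removed; leaving out the 6% deepest cells of each library was an alternative. Classes needed 2 genes of their marker list (CD3/TCR: 3) with a UMI. A share of 0 was given a limit of 3 counts. Ratios between libraries needed 10 UMIs over both. For each factor and library with 50 or more positive cells, the 5 genes of highest phi among genes in 1% or more of cells were named. Intron lengths and positions came from GENCODE M21 (GRCm38), which held 27639 of 27726 genes (99.7%).

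Ta-activated and ta-non-activated sums were compared with edgeR 4.0.16 (TMM, filterByExpr, quasi-likelihood F-test, Benjamini-Hochberg over 12643 genes, threshold 0.05) in R 4.3.3, with DESeq2 1.42.0 as an alternative. Nothing says that the 2 weeks were more than single pools of mice, so p-values measure the spread between these libraries only. Of the steps, the phi ranking and the edgeR fit were tested on simulated data before use. The changes planted for edgeR were large, and the spread between libraries was set rather than taken from these data. That run checks the code and says nothing of the power of the fit here. Python 3.11.15 with numpy 2.4.6, scipy 1.17.1, pandas 2.3.3 and matplotlib 3.10.9 did the rest. Other alternatives changed the mitochondrial limit, the barcode filter, the low-count filter, the cells used, the libraries used, the thinning depth and the class limits.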

Additional observations from a re-analysis of the deposited data

Results flagged for a closer look

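The direction of 2 contrasts differed between the weeks, each with 1 library on either side, so the difference between the weeks was not tested. For Ikzf2 in all cells, the log2 ratio of ta-activated to ta-non-activated was 1.32 in week 2 and -1.39 in week 3. Within ILC2 gene cells of no other class these Ikzf2 values were 1.46 and -0.21. There the week 3 ratio of 0.864 had an interval (0.715 to 1.05) that held no change. For Ikzf3 in ILC2 gene cells of no other class, the log2 ratio was 1.84 in week 2 and -0.40 in week 3. In both cases the 2 ta-non-activated libraries lay further apart than the 2 ta-activated ones: Ikzf2 was at 39.7 and 210 CPM against 99.2 and 79.9 CPM, and Ikzf3 in this class was at 37.3 and 246.1 CPM against 133.2 and 186.6 CPM.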

How the results depend on the processing

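In the comparison of ta-activated with ta-non-activated libraries, edgeR called 0 genes and DESeq2 called 1037. Leaving out each library in turn, which assumes that the lone library of a group varies like the others, gave 0 to 1646 genes: 1646 without the week 2 and 513 without the week 3 ta-non-activated library, and 0 without either ta-activated one. With 2 libraries per group, the deviations from the group means give the same correlation in both weeks (-0.061). That value cannot show whether the weeks pair the libraries. With week as a replicate block edgeR called 0 genes, with 1505 at an unadjusted p under 0.05. With DESeq2, Maf and Ikzf3 passed. Leaving out each library gave log2 differences of 1.83 to 2.48 for Maf, 1.34 to 1.78 for Ikzf3, 0.24 to 1.83 for Tox, -1.16 to 0.93 for Ikzf2 (0.93 without the week 3 ta-non-activated library) and -1.62 to 0.042 for Ahr (0.042 without the week 2 ta-activated library). Ikzf2 also turned to 0.19 without CD3/TCR and NK or ILC1 gene cells. An alternative chosen after seeing the data, with ILC2 gene cells of no other class only, gave 0.31 for Ikzf2, -0.014 for Ikzf3 and -0.0029 for Tox. The gap of Gata3 between naïve cells with and without Tbx21 was -24.8 points with 2 or more Gata3 UMIs required and -36.0 points in another random draw, also chosen after seeing the data. Tbx21 was in 36.7% of naïve NK or ILC1 gene cells with 1 gene more required. At 1000 UMIs per cell, Maf was in 33.2% of naïve type 17 gene cells and Ikzf2 in 22.8% of week 3 ta-non-activated CD3/TCR gene cells. Some Gata3 gaps turned: 0.33 points for naïve Maf without thinning (from -4.74), -6.66 and -4.42 points for Tox in the week 2 ta-non-activated library (from 14.5) without the deepest 6% of cells and with 2 or more Gata3 UMIs, and -0.29 points for Tox in the week 3 ta-activated library without the deepest cells. The cause of these changes was not tested. Of 112 alternative levels of single factors 71 moved by less than the counting error. Tbx21 and Eomes had 0 to 15 UMIs in each of the 4 tumour-associated libraries, 3 of which were deeper than the naïve one, so their ratios and fits there are imprecise.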
